A study of Arabidopsis thaliana with 12 samples.

Results

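Transcripts in nuclei of the proembryo were compared with those in nuclei of the whole embryo of Col-0 wild-type Arabidopsis thaliana. The arrays were of the Affymetrix ATH1 type, which reads transcripts with probe sets of short oligonucleotides. The members are the 6 arrays of these groups, 3 of proembryo nuclei and 3 of whole-embryo nuclei, chosen by their titles out of 12 arrays in the series. Both groups came from embryos of 2 to 16 cells in plants grown with 16 h of light and 8 h of dark. Per the labels, ovules were fixed in 0.1% paraformaldehyde, nuclei were extracted with a CelLytic PN kit, RNA was released with proteinase K, and labelled RNA was made by single-round ENZO amplification. The 3 arrays of suspensor nuclei were prepared the same way and serve below as the measure of a lineage that differs; the 3 arrays of whole-embryo cells, from embryos of 8 to 32 cells and another extraction, are used only for a few side values. The nuclei were sorted by tissue-specific marker; which marker line marked which group, how many nuclei each array pooled, and what share of the whole-embryo nuclei was proembryo is not stated in the labels. The titles call the replicates biological without saying that plants, harvests or sorts were separate, so each p-value reflects only how far these samples spread, which may be technical.

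After the first divisions of the zygote, the proembryo is the upper part, which forms nearly all of the later plant. The suspensor is the lower file of cells, which anchors the embryo, feeds it and later degenerates. The whole embryo holds both, inside an ovule whose endosperm and seed coat lie close by. Nuclear RNA holds transcripts still being made or awaiting export, while cellular RNA is mostly mature message in the cytoplasm.

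Values are linear intensities and are given here as levels, log2(intensity + 16), so a difference of 1 unit is close to 2-fold for bright probe sets and understates the change of dim ones. Of 22746 non-control probe sets, 13513 have 1 gene in the annotation, 503 have several and 8730 are unnamed here. Probe sets bind with different strength, so an order of brightness is an order of signal and not of molecules. A probe set was tested if it lay above the median of its own array in at least 3 of the 9 arrays of nuclei, which kept 12787. The arrays were scaled alike: the mean after trimming 2% at each end was 200.02 on all 6. The hybridisation controls averaged 11.30 to 12.29 in proembryo nuclei and 11.47 to 12.60 in whole-embryo nuclei, and 3' actin signal exceeded 5' actin signal by 4.31 to 4.53 and 4.01 to 4.56 log2 units. Both measures overlapped between the groups.

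One pair of arrays stood apart before any gene was compared. Proembryo replicate 1 and whole-embryo replicate 2 were the closest pair of all arrays of nuclei, with a Pearson r of 0.950 over the tested probe sets, a median absolute difference of 0.263 log2 units, and 93 of their brightest 100 probe sets in common. No pair within proembryo nuclei reached that (r 0.879 to 0.919), and no pair within whole-embryo nuclei did (0.898 to 0.920). The array nearest to proembryo replicate 1 was therefore a whole-embryo array, and the same was true of proembryo replicate 2, whereas proembryo replicate 3 lay nearest to proembryo replicate 1. The counts of calls, the size of the differences and the overlap of the brightest probe sets are given with and without these 2 arrays; the values by array and by brightness are given with them only.

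**Figure D1:**
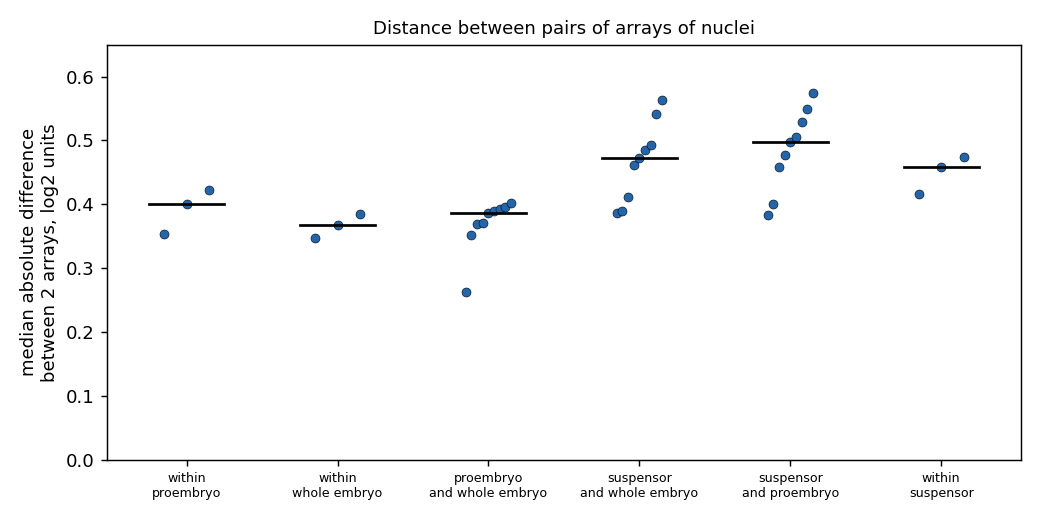
Each point is 1 pair of arrays of nuclei; the vertical axis gives the median absolute difference between the 2 arrays over the tested probe sets, in log2 units, and the bar is the median over the pairs. Proembryo and whole-embryo arrays lay between 0.263 and 0.402 from each other, close to the 0.354 to 0.423 within proembryo nuclei. Suspensor arrays lay 0.383 to 0.575 from proembryo arrays and 0.416 to 0.474 from each other.

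No probe set passed the test between proembryo and whole-embryo nuclei. GILT, THI2.1, ATLP-1, EXLA1 and ULT1 were the 5 brightest genes of proembryo nuclei with a symbol, and their means differed from those in whole-embryo nuclei by at most 0.33 log2 units. With limma, 0 of 12787 probe sets (0%) passed an adjusted p of 0.05, and the smallest adjusted p was 1. An unadjusted p under 0.05 was reached by 402 probe sets (3.14%), and the arrays of the groups did not overlap for 1053 (8.23%). Without the close pair, proembryo replicate 1 and whole-embryo replicate 2, the count was again 0, of 12262, and 438 had an unadjusted p under 0.05.

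The absence of calls does not show that the groups are alike, so the size of the difference was bounded. The median absolute difference of the group means was 0.209 log2 units, and 232 probe sets (1.81%) differed by more than 1 unit, 5 of them by more than 2. The 95% interval lay within 1 unit on either side of 0, that is within about 2-fold, for 7083 probe sets (55.4%). For the other probe sets the interval held differences of 2-fold or more; at the median, intervals reached 0.707 to either side of the estimate. Without the close pair the median absolute difference was 0.280, and the share with an interval within 1 unit dropped to 25.7%, in a fit with 2 fewer arrays. Data were simulated from these arrays with independent noise and 200 probe sets changed at once, 50 each by 0.5, 1, 2 and 3 log2 units. The test recovered 28% of the 50 changed by 1 unit and 92% of the 50 changed by 2, with 3 false calls. Large changes in the same run ease the adjusted threshold for smaller ones. Recovery where no large change is present was not tested and may be lower.

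Suspensor nuclei lay farther from the whole embryo. Their median absolute difference was 0.328 log2 units, 905 probe sets (7.08%) differed by more than 1 unit, and limma called 199 (1.56%), with 76 higher (0.594%) and 123 lower (0.962%). That count of 199 was 5 without the close pair, 27 without whole-embryo replicate 2, 37 without whole-embryo replicate 1, 57 without suspensor replicate 2 and 92 without suspensor replicate 3. It was 122 without whole-embryo replicate 3, 309 without suspensor replicate 1 and 9 with no intensity trend in the fit. Arrays did not overlap for 18.9% of probe sets. Both comparisons share the whole-embryo arrays. By pairs of arrays, suspensor lay 0.387 to 0.563 from whole embryo (median 0.473). Suspensor arrays lay 0.416 to 0.474 from each other (median 0.459), against 0.354 to 0.423 within proembryo nuclei. Their hybridisation controls averaged 11.02 to 13.52. How far this spread enters the distance was not tested. The excess of 3' over 5' actin signal was 3.25 to 3.75 log2 units in suspensor nuclei, below every proembryo and whole-embryo array. That of ubiquitin was 4.48, 5.51 and 5.34 in suspensor replicates 1 to 3, and replicates 2 and 3 lay above every proembryo (4.48 to 4.55) and whole-embryo array (4.39 to 4.87). The part of these ratios in the suspensor values was not tested. Array by array, the median absolute difference to the whole-embryo mean was 0.261, 0.331 and 0.315 in the 3 proembryo replicates and 0.332, 0.429 and 0.492 in the 3 suspensor replicates. By this measure the highest proembryo value lay just under the lowest suspensor value. The means were 0.302 ± 0.037 and 0.418 ± 0.081 (SD, n = 3 each), with a two-sided exact permutation p of 0.1, the smallest that 3 arrays against 3 can give. By the Pearson r with the whole-embryo mean the groups overlapped, since proembryo replicate 2 (0.921) lay below suspensor replicate 1 (0.924); the means were 0.934 ± 0.018 and 0.884 ± 0.040, with a two-sided exact permutation p of 0.2 (n = 3 each). In bulk samples such as these, fewer nuclei of a type and less RNA per nucleus cannot be told apart.

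The tested probe sets were split by mean level into 5 groups of equal size, and the distance was smaller in the brighter groups. In the dimmest group the median absolute difference between proembryo and whole-embryo nuclei was 0.322 log2 units and 8.41% of the intervals lay within 1 unit. In the brightest group these values were 0.156 and 87.9%. Of the 232 probe sets that differed by more than 1 unit, 166 were in the dimmest group and 6 in the brightest. The suspensor did not narrow in the same way: its median absolute difference to the whole embryo was 0.417 in the dimmest group, 0.287 in the middle group and 0.333 in the brightest.

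**Figure D2:**
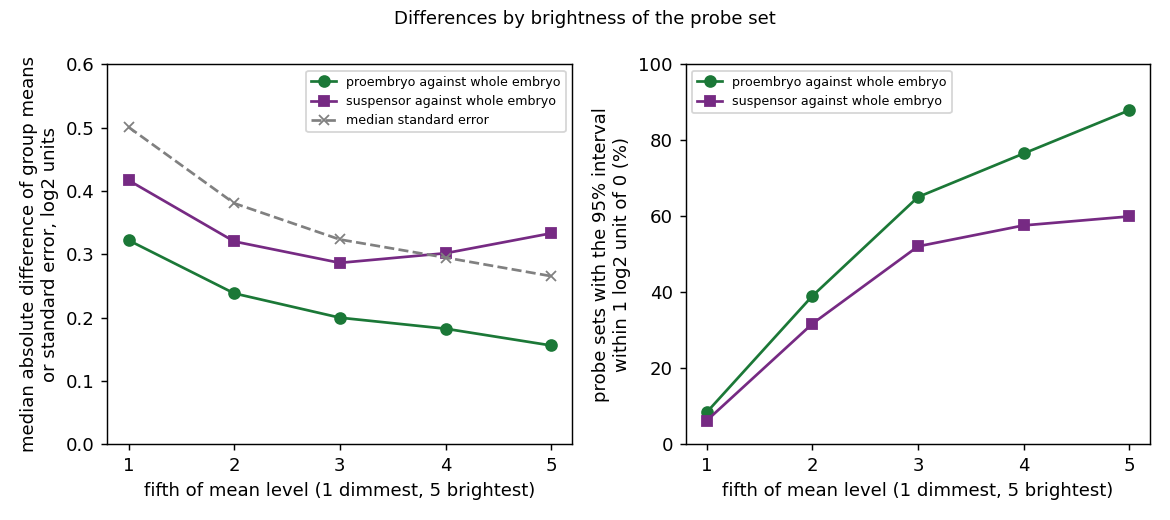
The tested probe sets were split into 5 groups by mean level (horizontal axes). The left panel shows the median absolute difference of group means and the median standard error, in log2 units, and the right panel the percentage of probe sets whose 95% interval lay within 1 unit of 0. For proembryo nuclei the difference dropped from 0.322 to 0.156 and the percentage rose from 8.41 to 87.9; for suspensor nuclei the percentage reached 60.0.

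The brightest transcripts of proembryo nuclei were largely those of the whole embryo. Of the brightest 100 probe sets by mean level, 90 were also among the brightest 100 of whole-embryo nuclei, and 79 were among those of suspensor nuclei. Without the close pair 89 were shared with the whole embryo. In lists of 50 the overlap with the whole embryo was 45 (90%) and in lists of 500 it was 467 (93.4%). The 5 brightest probe sets held the same 5 places in both groups. All 100 were tested, of which 46 belong to 1 gene, 16 to several and 38 to none named here. None of the 46 with 1 gene was encoded by a plastid or mitochondrion, and the 16 with several genes were not looked up for this. These 100 probe sets were chosen as bright in proembryo nuclei, which tilts their differences upward. Their median difference was -0.02 log2 units, against -0.01 over all tested probe sets, with a range from -0.62 to 0.33 and 44 higher and 56 lower. The interval lay within 1 unit for 96 of the 100, and for 66 of them in suspensor against whole embryo. Each array's own brightest 100 held 18.61% to 22.30% of all signal in proembryo nuclei and 20.23% to 22.02% in whole-embryo nuclei, so the ranges overlapped.

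AT1G52300 was the brightest probe set with 1 gene. Its levels were 14.94, 15.72 and 14.71 in proembryo replicates 1 to 3 and 15.13, 14.76 and 15.51 in whole-embryo replicates 1 to 3. The groups overlapped, and the difference was -0.01 (SE 0.29). AT3G60245 followed at a mean of 14.85 ± 0.291 against 14.79 ± 0.205, and AT5G01870 at 14.80 ± 0.352 against 15.03 ± 0.290 (SD, n = 3 each). The other genes known only by locus tag among the brightest 15 were AT4G15750, AT4G39200, AT2G19730, AT3G16080, AT1G56100, AT5G35530, AT1G77940, AT5G49180, AT5G20290 and AT5G47930. Their proembryo means lay between 13.81 and 14.62, and their differences from the whole embryo between -0.44 (AT1G77940) and 0.20 (AT5G49180).

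GILT, named for a lysosomal thiol reductase known from mammals, was the brightest gene with a symbol. Its levels were 14.79, 14.95 and 14.51 in proembryo nuclei and 14.75, 14.63 and 14.90 in whole-embryo nuclei. The groups overlapped fully, with a difference of -0.01 (SE 0.24). THI2.1 encodes a thionin, a small antimicrobial peptide. It stood at 14.65, 14.98 and 14.43 in proembryo nuclei against 14.28, 14.42 and 14.37 in whole-embryo nuclei, which put every proembryo array above every whole-embryo array. The difference was 0.33 (SE 0.23, limma adjusted p = 1, higher in 3 of 3 arrays). Among the brightest 100, 3 probe sets had arrays that did not overlap, where 8.23% of all tested did not. In whole-embryo cells THI2.1 stood at 12.54, 12.27 and 10.73, below all arrays of nuclei, where stage and extraction differ too.

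ATLP-1, EXLA1, SBT1.3 and LCR68 were also among the 15 brightest genes with a symbol. ATLP-1, a thaumatin-like protein, averaged 13.76 ± 0.213 in proembryo nuclei and 13.91 ± 0.169 in whole-embryo nuclei (SD, n = 3 each), with overlapping arrays. Suspensor nuclei stood lower for ATLP-1, at 13.36, 13.42 and 13.26, below all proembryo arrays, a difference of -0.41 from the proembryo that did not pass (limma adjusted p = 0.352). EXLA1 is an expansin-like protein of the cell wall. It averaged 13.21 ± 0.247 in the proembryo and 13.47 ± 0.350 in the whole embryo. SBT1.3, a subtilisin-like serine protease, averaged 13.09 ± 0.334 and 13.01 ± 0.214. LCR68, a small cysteine-rich peptide of the defensin-like kind, averaged 12.63 ± 0.089 and 12.74 ± 0.292. For none of these did the proembryo and whole-embryo arrays separate. Suspensor arrays of EXLA1 (13.56, 13.61 and 13.94) and LCR68 (12.78, 13.37 and 12.81) lay above all their proembryo arrays. Neither difference from the proembryo passed, at 0.49 (limma adjusted p = 0.315) for EXLA1 and 0.35 (limma adjusted p = 0.488) for LCR68. Suspensor and proembryo arrays did not overlap for 19.3% of all tested probe sets.

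ULT1, UBC28 and HTB4 belonged to the same 15. ULT1 encodes ULTRAPETALA1, a trithorax-group factor that limits stem cells in shoot and floral meristems. Its levels were 13.32, 12.98 and 13.23 in proembryo nuclei, 13.05, 13.46 and 12.40 in whole-embryo nuclei and 12.51, 11.88 and 12.20 in suspensor nuclei. The proembryo range lay inside the whole-embryo range and above the suspensor range. ULT1 differed by 0.21 (SE 0.27) between proembryo and whole embryo, and suspensor minus proembryo was -0.98 (SE 0.27, limma adjusted p = 0.063), short of the threshold. HTB4, a histone H2B, stood at 12.90, 12.45 and 12.43 against 13.16, 12.88 and 12.30, with full overlap. UBC28, a ubiquitin-conjugating enzyme, averaged 13.17 ± 0.196 and 13.09 ± 0.094.

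The other genes of the 15, beside BAN and DELTA-VPE described below, were cICDH (cytosolic isocitrate dehydrogenase), ACLA-1 (a subunit of ATP-citrate lyase, which makes cytosolic acetyl-CoA), CYTC-1 (cytochrome c, the mobile electron carrier of mitochondria) and SAMDC (S-adenosylmethionine decarboxylase of polyamine synthesis). Their differences from the whole embryo were 0.11, 0.07, -0.16 and -0.11 log2 units, with standard errors from 0.23 to 0.26. The next genes stood just outside: PS1, a presenilin, at 12.11, and SP1L3, of the microtubule-linked SPIRAL1 family, at 12.11 in proembryo nuclei, below the 12.28 of SAMDC.

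**Figure D3:**
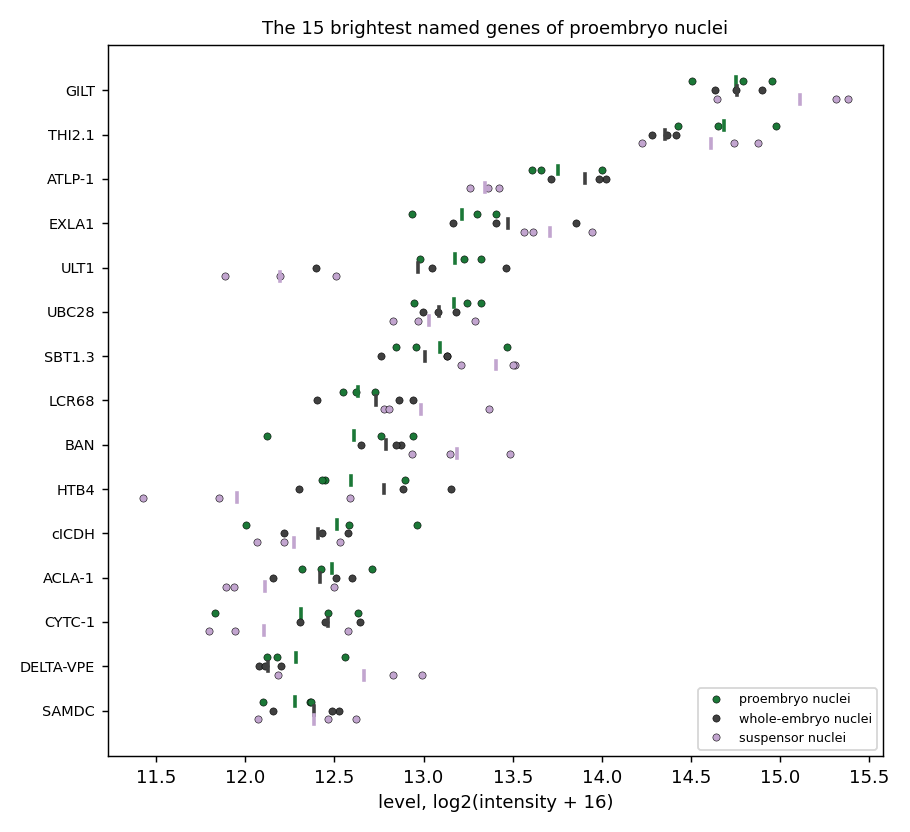
Level, log2(intensity + 16), of the 15 brightest named genes of proembryo nuclei, 1 point per array and a vertical bar at the mean of each group of 3 arrays. Proembryo and whole-embryo points overlap for 14 of the 15, all but THI2.1. The suspensor points of ATLP-1 and ULT1 lie below all proembryo points, and those of EXLA1 and LCR68 lie above them.

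A bright list can also be chosen on the whole-embryo arrays and read in a contrast that does not hold them. Of the brightest 100 probe sets of whole-embryo nuclei, limma called 5 between suspensor and proembryo nuclei, or 5% of the list, where 2.03% of all tested probe sets were called (260 of 12787). By direction 2 were higher and 3 lower in the suspensor, against a background of 0.696% and 1.34%. Arrays did not overlap between suspensor and proembryo for 19.3% of all tested probe sets. That count of 5 ranged from 0 to 10 under other settings, given in the closing section. The 2 with 1 gene were AT3G62870 and AT3G06700, chosen after their values were seen. AT3G62870 stood at 13.37, 13.33 and 13.27 in proembryo nuclei, 13.21, 13.50 and 12.91 in whole-embryo nuclei and 12.30, 11.66 and 11.45 in suspensor nuclei. Proembryo and whole embryo overlapped and the suspensor lay below both, by -1.52 from the proembryo (SE 0.25, limma adjusted p = 0.0058).

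Genes that mark other tissues of the ovule were bright in these nuclei as well. BAN, anthocyanidin reductase of the condensed tannins of the seed coat, stood at 12.94, 12.12 and 12.76 in proembryo nuclei and 12.65, 12.87 and 12.85 in whole-embryo nuclei. In suspensor nuclei it stood at 12.94, 13.48 and 13.15, so it was bright in all groups of nuclei and did not separate proembryo from whole embryo. DFR, dihydroflavonol reductase of the same pathway, averaged 11.30 ± 0.101 and 11.27 ± 0.188 (SD, n = 3 each). DELTA-VPE, a vacuolar processing enzyme known from the dying inner seed coat, averaged 12.29 ± 0.237 and 12.13 ± 0.063. A probe set was named for 2 of the 13 seed coat markers. Their summed intensity was 6745 to 10450 in proembryo nuclei, 8952 to 10230 in whole-embryo nuclei and 9632 to 13770 in suspensor nuclei. The part of seed coat RNA in any result was not tested.

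Of 23 names of embryo markers, 5 genes had a named probe set, and none of the 8 suspensor names did, so the label proembryo can be checked from its own side only. The summed intensity of the 5 was 1273 to 1642 in proembryo nuclei, 1402 to 1620 in whole-embryo nuclei and 1021 to 1175 in suspensor nuclei, and the suspensor range lay below both others. BBM, an AP2-type factor that promotes embryo identity, stood at 8.17, 7.71 and 7.84 in the proembryo, 7.89, 7.78 and 7.41 in the whole embryo and 6.92, 7.12 and 6.53 in the suspensor. YUC4, an enzyme of auxin synthesis, stood at 8.20, 8.50 and 8.81, at 8.47, 8.40 and 8.44, and at 7.45, 7.18 and 7.42. For both genes the proembryo overlapped the whole embryo and lay above the suspensor, and the suspensor difference passed the test for YUC4 (limma adjusted p = 0.0321) and not for BBM (limma adjusted p = 0.0815). The other 3 markers did not separate the lineages. CR4 and GSO1, receptor kinases of the epidermis, differed from the whole embryo by 0.12 (SE 0.40) and -0.33 (SE 0.27). For GSO1 all proembryo arrays (9.26, 8.77 and 9.27) lay below all whole-embryo arrays (9.45, 9.45 and 9.38). Suspensor minus proembryo was -0.72 (SE 0.40) for CR4, with overlapping arrays, and 0.04 (SE 0.27) for GSO1. PHV, a class III HD-ZIP factor of organ polarity, spread from 6.15 to 8.56 in proembryo and from 4.48 to 8.45 in whole-embryo nuclei, and its suspensor minus proembryo difference was 0.15 (SE 0.75).

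Markers of endosperm and gametes did not separate proembryo from whole embryo. The 4 endosperm markers with a probe set, out of 12 names, were AGL62, AGL80, IKU2 and DME. Their summed intensity was 199.9 to 391.4 in proembryo nuclei, 285.7 to 425.5 in whole-embryo nuclei and 390.9 to 573.4 in suspensor nuclei. The suspensor range thus met the proembryo range only at its edge. Suspensor minus proembryo was 0.67 (SE 0.56) for AGL62, 0.67 (SE 0.45) for AGL80 and 0.75 (SE 0.38) for the tested probe set of DME, and none passed. IKU2, a receptor kinase of endosperm growth, was below the filter, and AGL62, a MADS-box factor of the dividing endosperm, averaged 6.16 ± 0.784 against 5.88 ± 0.628 (SD, n = 3 each). AGL80, a MADS-box factor of the central cell and early endosperm, stood at 7.13, 7.51 and 5.37 against 7.23, 7.14 and 7.28, a difference of -0.55 (SE 0.45) with proembryo replicate 3 the lowest. DME, a DNA glycosylase that removes methylated cytosine, had 1 of its 3 probe sets tested, at 7.49, 7.22 and 6.07 against 6.95, 7.55 and 7.75, and it differed by -0.49 (SE 0.38). EC1.2, a secreted peptide of the egg cell, was the only measured gene of 8 egg, central cell and pollen names. It stood at 5.12, 7.89 and 7.13 in proembryo nuclei and at 6.60, 7.46 and 7.25 in whole-embryo nuclei, with no order between the groups.

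The gene lists described here leave out those made after values were seen. Of the 14 with at least 3 tested genes, the mitochondrion-encoded list had the median farthest from that of all probe sets. No member of any list was called between proembryo and whole embryo (background 0%). Of 7 tested histone genes, 2 were higher and 5 lower, with a median of -0.08, and the 3 brightest, all H2B genes, differed by -0.19 (HTB4), 0.03 (HTB1) and 0.00 (HTB11). Of 15 tested genes of splicing and polyadenylation, 10 were higher and 5 lower, with a median of 0.09 and 13 intervals within 1 unit. MAC3B, a component of the spliceosome-linked MAC complex, stood at 11.78, 11.92 and 11.55 against 11.72, 12.04 and 11.75. The 25 tested genes of chromatin and DNA replication split 12 to 13 with a median of 0.00, and the 26 tested genes of ubiquitin and proteasome split 12 to 14 with a median of -0.04. For comparison, 6218 of all tested probe sets were higher and 6569 lower.

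Of the growth and transport genes the interval lay within 1 unit for 6 of 11 wall genes, 6 of 9 auxin genes, 6 of 7 tubulins and actins and 6 of 12 sugar transporters, against 55.4% of all tested probe sets. The median over 11 tested expansins and xyloglucan endotransglucosylases was 0.03, and XTH16, which remodels xyloglucan in the wall, averaged 8.37 ± 0.226 against 8.10 ± 0.217 (SD, n = 3 each). The 9 tested auxin genes had a median of 0.06, with ILR3 at 0.29 (SE 0.26) and GH3.3, which conjugates auxin to amino acids, at -0.07 (SE 0.32). Tubulins and actins had a median of -0.13 over 7 genes, and TUB7, a beta-tubulin, stood at 9.84, 9.90 and 10.25 against 9.69, 9.79 and 9.77. The TUB7 arrays did not overlap, at a difference of 0.24 (SE 0.25) that did not pass. The 12 tested sugar transporters had a median of -0.09, with a range from -0.91 to 0.51. SWEET8 was the one of its 3 brightest members that lay away from 0, at 8.85, 10.25 and 9.52 in proembryo nuclei against 10.59, 10.65 and 9.59 in whole-embryo nuclei, a difference of -0.73 (SE 0.36, limma adjusted p = 1) with 1 proembryo array inside the whole-embryo range. Cell cycle genes, 9 tested, had a median of -0.11, with the mitotic kinase AUR1 at -0.05 (SE 0.23) and the cyclin-dependent kinase inhibitor SIM at -0.26 (SE 0.33).

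The remaining lists held between 1 and 16 tested genes. PGY1, a protein of the large ribosomal subunit, differed by -0.05 (SE 0.24) and EIF4A-2, an RNA helicase of translation initiation, by 0.22 (SE 0.24). Of the chaperones, 16 tested, 8 were higher and 8 lower, from -0.74 to 0.30, with 10 intervals within 1 unit. Hsp70-2, Cpn60beta2 (a plastid chaperonin subunit) and Hop2 (a co-chaperone) differed by -0.31, 0.18 and -0.14. The nuclear photosystem genes, 8 tested, had a median of -0.06, and PSBW, PSAE-1 and LHCB4.1 lay between -0.11 and 0.03. Of the 3 tested genes of small RNA and DNA methylation, AGO7, which binds small RNAs, differed by 0.29 (SE 0.36), NRPD7 by -0.17 (SE 0.33) and DME by -0.49 (SE 0.38), and 1 of the 3 intervals lay within 1 unit. OLEO3, an oil body protein, was equally dim in both groups, at 6.64 each.

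Mitochondrion-encoded genes had the lowest list median, -0.45 over 12 tested genes, with 10 lower in proembryo nuclei and 2 higher, and none was called. The interval lay within 1 unit for 1 of these 12 and for 4 of the 34 tested plastid-encoded genes, against 55.4% of all tested probe sets. By its brightest probe set nad1, a subunit of respiratory complex I, stood at 9.48, 10.95 and 9.86 in proembryo nuclei. In whole-embryo nuclei it stood at 11.23, 10.07 and 10.14. Whole-embryo replicate 1 was the highest array, as it also was for ccb452, which acts in cytochrome c maturation, and for nad4. ccb452 stood at 8.40, 9.83 and 9.58 against 10.86, 9.45 and 9.73. The other tested probe sets of nad1 disagreed in sign, at -0.69, -0.42, 0.78 and 0.65 for proembryo minus whole embryo. Without whole-embryo replicate 1 the list median was -0.22, over 11 genes, and without whole-embryo replicate 2 it was -0.64. The median of the plastid-encoded genes, 34 tested of 69, was -0.105, with 14 higher and 20 lower. It was 0.08, with 19 higher and 14 lower, without proembryo replicate 2, 0.08 with no filter and -0.27 without proembryo replicate 3. Without the close pair it was -0.23, and without whole-embryo replicate 2 it was -0.16. Their signal varied widely between arrays: psbM, a small subunit of photosystem II, stood at 11.95, 9.80 and 11.49 in proembryo nuclei against 11.94, 11.82 and 12.72 in whole-embryo nuclei, with proembryo replicate 2 the lowest.

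**Figure D4:**
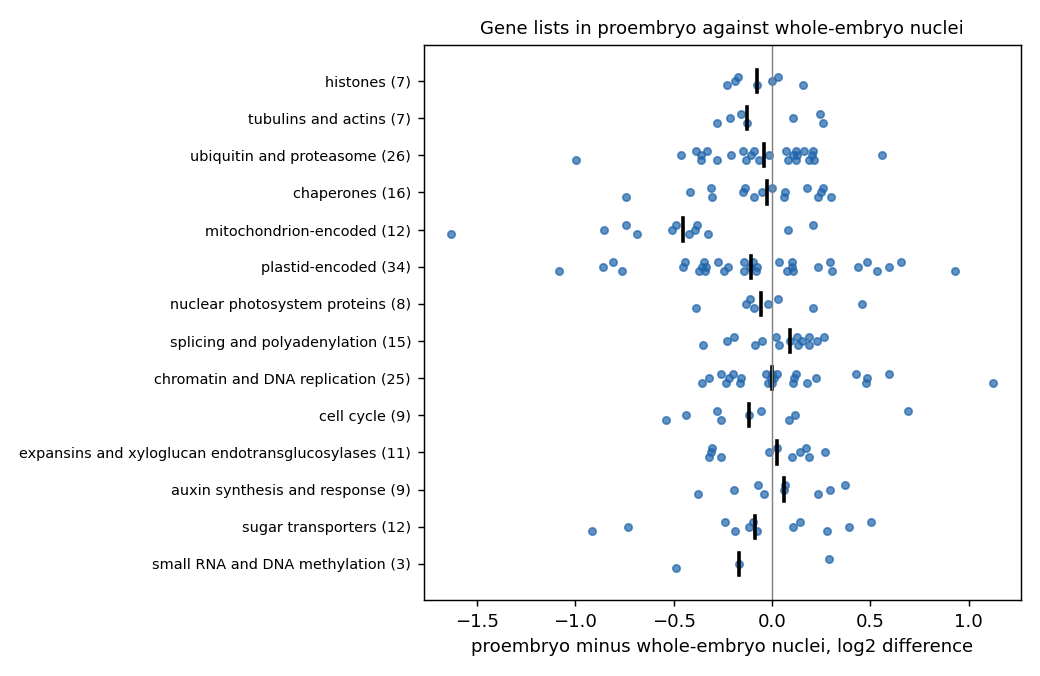
Each point is 1 tested gene, by its brightest probe set, and gives the log2 difference of proembryo minus whole-embryo nuclei; the black bar is the list's median and the number in brackets counts the tested genes. The median of mitochondrion-encoded genes lies at -0.45 and the other 13 between -0.17 and 0.09.

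With no call to rank, the 5 named genes with the smallest unadjusted p in each direction were described. The 5 higher in proembryo nuclei held 3 enzymes of chlorophyll synthesis. CHLM, the magnesium protoporphyrin methyltransferase, stood at 9.17, 9.47 and 9.28 against 8.50, 8.51 and 8.67 in whole-embryo nuclei, and at 9.24, 9.21 and 9.08 in suspensor nuclei. Both sorted lineages thus lay above the whole embryo, the proembryo by 0.74 (SE 0.24, limma adjusted p = 1). AT1G74470, annotated as a geranylgeranyl reductase, which makes the phytol tail, stood at 7.48, 7.13 and 8.31 against 6.42, 7.03 and 6.29. PORB, a light-dependent protochlorophyllide reductase, stood at 6.67, 6.97 and 7.54 against 6.33, 6.04 and 4.95. Suspensor means also exceeded the whole embryo, by 1.68 (SE 0.47) for PORB and 0.41 (SE 0.38) for AT1G74470. For each of the 3 genes all proembryo arrays lay above all whole-embryo arrays. Their choice by p on these same arrays favours such a separation, so it is no support for a difference. Arrays did not overlap for 8.23% of all tested probe sets.

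That pattern led to a list of chlorophyll and tetrapyrrole genes, chosen after these values were seen and so no support for it. Of 12 genes with a probe set 7 were tested, 6 higher and 1 lower in proembryo nuclei, with a median of 0.74 against -0.01 over all tested probe sets. HEMA2 and CHLI2, which act early and at magnesium insertion, differed by 0.71 and 0.74. The brighter members HEMB1 and GSA1 differed by 0.10 and -0.14. Without the close pair the median was 0.93. With only probe sets above the 75th percentile of their array, which left 3 of the genes, it was 0.10. For suspensor minus whole embryo the median over the 7 genes was 0.41.

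CCL and CXE18 completed the higher set. CCL, whose message is known to be short-lived and under the circadian clock, stood at 11.42, 10.85 and 11.56 in proembryo nuclei, 10.22, 10.50 and 10.83 in whole-embryo nuclei and 12.67, 12.22 and 12.47 in suspensor nuclei. The 3 groups did not overlap, with the whole embryo lowest and the suspensor highest. Proembryo minus whole embryo was 0.76 (SE 0.25, limma adjusted p = 1). CXE18, a carboxylesterase, stood at 7.60, 8.22 and 7.50 against 7.10, 6.19 and 6.80.

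Lower in proembryo nuclei were MSRA5, ATSIK, AAPT2, TET8 and UBC37. MSRA5, which repairs oxidised methionine, stood at 7.59, 6.88 and 7.19 against 8.31, 8.01 and 7.95, a difference of -0.87 (SE 0.29, limma adjusted p = 1). ATSIK stood at 6.68, 5.66 and 6.55 against 7.10, 7.28 and 7.48, and AAPT2, an aminoalcoholphosphotransferase of phospholipid synthesis, at 7.26, 6.65 and 6.61 against 7.71, 7.81 and 7.51. The arrays of these 3 genes and of UBC37 did not overlap between the groups, which their choice by p on these arrays favours. UBC37, a ubiquitin-conjugating enzyme, differed by -0.997 (SE 0.40). TET8, a tetraspanin of membranes and extracellular vesicles, was the brightest of the 5, at 11.44, 10.44 and 10.33 against 11.26, 11.65 and 11.54. Proembryo replicate 1 of TET8 lay inside the whole-embryo range, and the difference was -0.75 (SE 0.29).

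**Figure D5:**
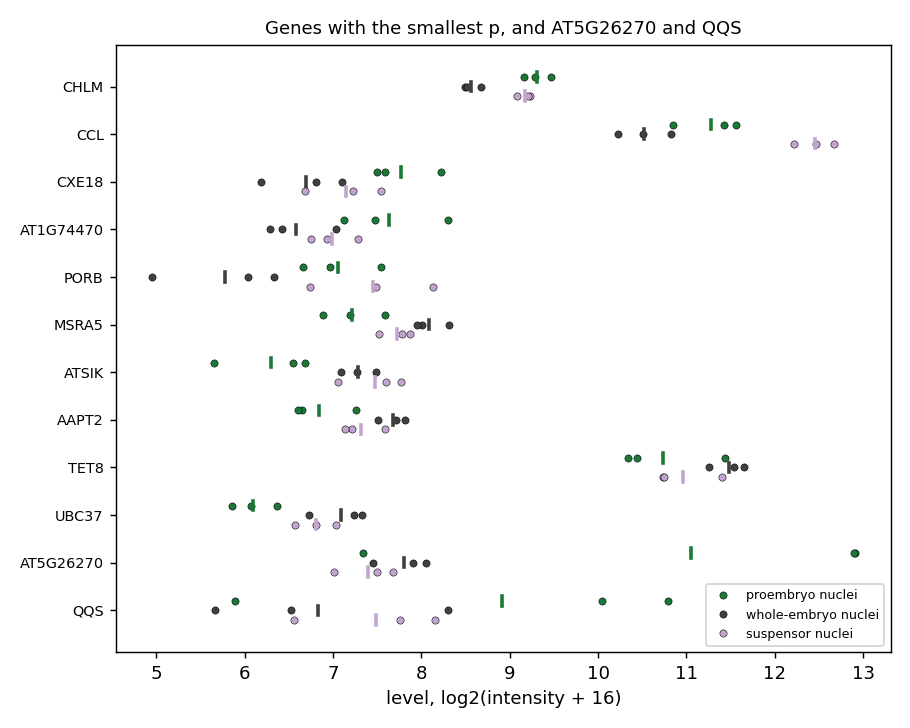
Level, log2(intensity + 16), of the 5 named genes with the smallest p in each direction and of AT5G26270 and QQS, 1 point per array and a vertical bar at each mean. CHLM to PORB lie higher and MSRA5 to UBC37 lower in proembryo nuclei; for AT5G26270 the proembryo points split, at 12.91, 12.89 and 7.34.

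The largest difference between the group means belonged to a gene whose proembryo arrays disagreed. AT5G26270, chosen after its values were seen, stood at 12.91, 7.34 and 12.89 in proembryo nuclei, at 7.46, 7.90 and 8.05 in whole-embryo nuclei and at 7.50, 7.01 and 7.69 in suspensor nuclei. Proembryo replicate 2 thus read like the other groups and the remaining proembryo arrays far above. The difference was 3.24 (SE 0.93, limma adjusted p = 1), and without proembryo replicate 2 it was the only probe set called. QQS, a small protein-coding gene that affects starch content, showed the same split at 10.79, 5.89 and 10.04 in proembryo nuclei. In whole-embryo nuclei QQS stood at 5.66, 6.52 and 8.30, a difference of 2.08 (SE 0.89).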

How the data were processed

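The members and the gene lists were chosen with earlier results of these data known. Each array has 1 linear intensity for every probe set, deposited as scaled by the authors. The submitters' processing notes list affy 1.32.1 and MAS5 without saying which step each did. From the deposited values log2(intensity + 16) was computed, leaving out 64 controls. The 9 arrays of nuclei, which share 1 estimate of the spread, entered a fit in R 4.3.3 by limma 3.58.1, using lmFit and a trended eBayes. Adjusted p-values are Benjamini-Hochberg values for 12787 tested probe sets. Precision is limited by having 3 arrays in a group. A gene with several probe sets is represented by its brightest. Named genes are the 15 brightest with 1 gene, the 15 brightest with a name, the 3 brightest of each list, the 5 smallest p in each direction and the cell type markers. Symbols came from a TAIR10.1 gene table used for names only; 13436 of 13513 probe sets with 1 gene matched it and 77 did not. Simulated data, 50 altered probe sets for each size, tested the fit. Replicate numbers were not used to pair the samples in the main fit. Python 3.11.15 and matplotlib 3.10.9 served for tables and plots.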

Additional observations from a re-analysis of the deposited data

Results flagged for a closer look

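Limma's contrast of suspensor minus proembryo passed for 5 of the 88 tested named genes, where 2.03% of all tested probe sets were called. Their difference from the whole embryo was thus not the same in the 2 sorted lineages. Many named genes were chosen by brightness or p on the proembryo arrays, which this contrast also holds. The count of 5 therefore cannot be read against the 2.03%. The beta-tubulin TUB7 differed by -1.29 (SE 0.25, adjusted p = 0.0167), with 0.24 for proembryo and -1.05 for suspensor against the whole embryo. For YUC4, of auxin synthesis, the contrast was -1.15 (SE 0.27, adjusted p = 0.0321), with 0.06 and -1.09 against the whole embryo. MAC3B, of the spliceosome, differed by -0.87 (SE 0.22, adjusted p = 0.0456), with -0.09 and -0.96. The proembryo overlapped the whole embryo for YUC4 and MAC3B, and for TUB7 all proembryo arrays lay above all whole-embryo arrays. In these 3 genes the suspensor stood below both. The sugar transporter SWEET8 differed by 1.49 (SE 0.36, adjusted p = 0.0413), with -0.73 and 0.75 on either side of the whole embryo. CCL differed by 1.17 (SE 0.25, adjusted p = 0.0231), with 0.76 and 1.93, both above the whole embryo. All 3 arrays of the suspensor lay on 1 side of all 3 proembryo arrays for each of the 5 genes, as they did for 19.3% of all tested probe sets.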

How the results depend on the processing

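No probe set was called between proembryo and whole-embryo nuclei under any alternative but 1: without proembryo replicate 2, AT5G26270 alone passed (range 0 to 1 when 1 array was left out). With a replicate block the count was 0 of 12787 (384 at an unadjusted p under 0.05), and the block changed no call of a named gene. Deviations of same-numbered proembryo and whole-embryo arrays correlated at -0.119, -0.140 and 0.0004. Those of same-numbered pairs with a suspensor array correlated at -0.064 to 0.106. Such values cannot tell whether samples of 1 number were harvested or sorted together. Over the other alternatives 217 to 715 probe sets reached an unadjusted p under 0.05. The share of intervals within 1 unit was 35.7% with no filter, 85.2% with a pseudocount of 64 and 25.7% without the close pair of arrays, an alternative added after the data were seen; it was 38.8% to 61.6% when 1 array was left out. The median absolute difference was 0.280 without the close pair and 0.207 to 0.255 when 1 array was left out, highest without proembryo replicate 1. The 5 probe sets of the whole-embryo list called between suspensor and proembryo were 1 with all 12 arrays, 1 after median centring, 1 with no filter, 9 with the 75th percentile filter, 0 with no intensity trend and 0 without the close pair. They were 1 to 10 when 1 array was left out: 10 without suspensor replicate 1, 2 without proembryo replicate 2 or 3, and 1 without proembryo replicate 1, whole-embryo replicate 2 or suspensor replicate 2 or 3. The 260 probe sets called between suspensor and proembryo ranged from 17 (no intensity trend) to 421 (without suspensor replicate 1), and the 199 between suspensor and whole embryo from 5 (without the close pair) to 309 (without suspensor replicate 1). The overlap of the brightest 100 was 86 to 93 when 1 array was left out and 79 to 93 between single arrays. Among the 88 tested named probe sets, 7 to 17 changed sign when a proembryo or whole-embryo array was left out and 0 to 4 under the other settings with all these arrays. Signal over background was not analysed here, as the values carry no background or detection call.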

Other observations

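AT4G23680 and AT5G43030, known by locus tag alone, were picked for their values. AT4G23680 stood at 7.27, 7.46 and 6.97 in proembryo nuclei and 4.23, 6.11 and 5.08 in whole-embryo nuclei. The proembryo arrays all lay above the whole-embryo arrays, and AT4G23680 differed by 2.09 (SE 0.59, limma adjusted p = 1). AT5G43030 ran the other way, at 5.83, 7.04 and 4.77 in the proembryo against 7.76, 8.15 and 7.67 in the whole embryo, a difference of -1.98 (SE 0.51, limma adjusted p = 1). For AT5G43030 the suspensor was higher than the proembryo by 2.13 (SE 0.51, limma adjusted p = 0.0363).

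Of the 3 tested vacuolar processing enzymes, a list put together with values in view, DELTA-VPE, GAMMA-VPE and BETA-VPE differed by 0.16, 0.43 and 0.12 log2 units (proembryo minus whole embryo), and none was called. Of 7 tested cysteine-rich and thionin peptides, from a list made the same way, 4 were higher and 3 lower, from -0.86 (LCR59) to 0.47 (LCR72).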
